A study of Mus musculus with 10 samples.

Results

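The genes described here encode proteins that fold, hydroxylate and trim procollagen, the soluble precursor of collagen. They were fixed by name as Serpinh1, P4ha1, P4ha2, P4ha3, Plod1, Plod2, Plod3, Bmp1, Pcolce and Pcolce2, and all 10 were found among the 26360 genes listed in the deposited table. RNA came from posterior eye tissue, labelled as RPE, choroid and sclera, of 5 wild-type C57BL/6J mice at postnatal day 34, both eyes of every mouse being sequenced apart (5 left-eye and 5 right-eye libraries). Per the labels, one eye of each mouse carried a lens of -20 D (a negative lens, used to induce myopia) for 10 days from postnatal day 24, and the fellow eye had no lens. The labels used here do not say on which side the lens sat, so left and right below are sides only and stand for no treatment. Animals are named by the numbers in their labels, 61, 64, 65, 66 and 68. The labels give the tissue as RPE, choroid and sclera, while their extraction text speaks of retinae.

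Fibrillar collagen chains are made in the endoplasmic reticulum, where prolyl 4-hydroxylases modify prolines that the triple helix needs for its stability, lysyl hydroxylases modify lysines used later in crosslinks, and the chaperone HSP47 binds the folded helix. After secretion, proteases cut the propeptides from both ends, which lets the molecules assemble into fibrils. The sclera is a collagen-rich coat, made mostly of type I collagen by fibroblasts, and remodelling of it is a known feature of myopia.

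Values are CPM (read counts scaled to a fixed library total) as deposited, and differences are on the scale log2(CPM + 0.230). The step between low values gave implied library totals of 66.8 to 94.1 M reads, so that 3 reads corresponded to 0.0319 to 0.0449 CPM, which covers counting error only. The listed genes made up 42.7% to 47.1% of the CPM total, lowest in the left eye of animal 65. No gene differed between right and left eyes after adjustment (0 of 15414 tested, 0% called, limma, Benjamini-Hochberg). In the same fit 430 genes had an unadjusted p under 0.05 (124 higher and 306 lower in the right eye). An alternative, limma with voom weights on rounded implied reads, also called 0. Between animals 13 genes were called, 0.0843% of those tested, among them the Y-linked Ddx3y, Kdm5d, Eif2s3y and Uty. Each of these was lowest in animal 61 or 65, and Xist, called too, was highest in animal 65 and lowest in animal 68. Sex thus appears to differ between the animals, and ranges between animals below cannot be told apart from it. Summed over marker lists, RPE genes reached 4629 to 6415 CPM and scleral fibroblast genes 5783 to 8433 CPM, so markers of the labelled tissue were present in every library. Markers of rods (102 to 1509 CPM), skeletal muscle (1715 to 8070 CPM), surface epithelium (92.6 to 738 CPM) and lens (62.9 to 634 CPM) were present too. All 5 surface epithelium genes were lower in the right eye (median log2 difference -1.06, 0 called). An alternative fit took the mean of the skeletal muscle markers as a covariate, and it called 0 genes between the eyes. Apart from that fit, the part of these tissues in the results below was not tested.

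Promoters are shown for Serpinh1, P4ha1 and P4ha2, because the values below set these genes side by side: Serpinh1 and P4ha1 followed each other and type I collagen across libraries, while P4ha2, which encodes an alternative subunit for the same reaction as P4ha1, did not. Each run holds 250 bases before and 50 bases after the RefSeq gene start, 5′ to 3′ on the gene's strand, on GRCm38.p6. Capitals mark the letters ACGTG or GCGTG on either strand (CACGT or CACGC as printed when on the opposite strand). ACGTG is the core of the hypoxia response element. The Serpinh1 window is chr7:99353190-99353489 (minus strand), the P4ha1 window chr10:59323046-59323345 (plus strand) and the P4ha2 window chr11:54100674-54100973 (plus strand), and the P4ha2 window lies inside the gene as deposited, downstream of its deposited start.
Serpinh1: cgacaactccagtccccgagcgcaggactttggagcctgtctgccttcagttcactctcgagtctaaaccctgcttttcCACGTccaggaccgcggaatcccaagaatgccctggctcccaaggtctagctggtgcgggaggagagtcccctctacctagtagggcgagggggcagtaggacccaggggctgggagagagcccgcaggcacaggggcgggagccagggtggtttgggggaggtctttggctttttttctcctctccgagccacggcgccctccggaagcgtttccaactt
P4ha1: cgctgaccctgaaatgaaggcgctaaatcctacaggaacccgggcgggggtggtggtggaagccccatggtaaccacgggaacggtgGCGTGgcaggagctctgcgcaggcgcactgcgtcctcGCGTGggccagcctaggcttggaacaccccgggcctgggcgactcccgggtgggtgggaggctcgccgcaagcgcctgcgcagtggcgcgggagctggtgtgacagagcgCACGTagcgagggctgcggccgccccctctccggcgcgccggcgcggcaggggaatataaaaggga
P4ha2: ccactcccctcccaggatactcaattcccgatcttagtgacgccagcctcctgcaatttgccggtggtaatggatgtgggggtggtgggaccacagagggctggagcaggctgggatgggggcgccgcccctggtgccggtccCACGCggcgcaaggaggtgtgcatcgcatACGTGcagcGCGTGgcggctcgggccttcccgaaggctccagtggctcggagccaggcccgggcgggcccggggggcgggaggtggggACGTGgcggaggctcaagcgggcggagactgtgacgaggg

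The Serpinh1 run holds 1 ACGTG and no GCGTG, the P4ha1 run 1 ACGTG and 2 GCGTG, and the P4ha2 run 2 of each. Of the members, 8 had a promoter in the RefSeq table (all but Bmp1 and Plod2). The Pcolce window, like that of P4ha2, lies inside the gene as deposited, downstream of its deposited start. ACGTG stood in 4 of these 8, against 19.6% of all 32851 promoters of the same length, and GCGTG in 5 of 8, against 32.4%. The letters GGGCGG, a GC box, stood in 7 of 8 against 35.7%, and CCAAT in 1 of 8 against 37.4%, with both strands searched and each of the 4 motifs counted on its own, so that matches of ACGTG and GCGTG may share letters. These are matches of letters, not sites of binding. The GC content was 62.3% for Serpinh1 and 70.3% each for P4ha1 and P4ha2, against a median of 52.7% over all promoters, so motifs rich in G and C were not compared at equal base composition.

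Serpinh1 encodes HSP47, the collagen-specific chaperone (chr7:99345376-99353239, minus strand, GRCm38, 2443 bases of exon). It was the most abundant member by CPM and ranked 178th of all listed genes. Left eyes of animals 61, 64, 65, 66 and 68 had 185, 185, 150.0, 193 and 239 CPM, and right eyes in the same order had 168, 167, 207, 221 and 221 CPM. The left-eye library of animal 65 was the lowest and that of animal 68 the highest, and the sides overlapped throughout. Means were 191 ± 31.8 CPM on the left and 197 ± 27.1 CPM on the right (SD, n = 5 each). The right minus left log2 difference was 0.05 ± 0.10 (SE), with a 95% interval of -0.18 to 0.28 (adjusted p = 0.9998, limma), or 0.884-fold to 1.22-fold. The right eye was higher in 2 of 5 animals. Without animal 65 the direction turned, to a log2 difference of -0.05, with means of 201 ± 25.8 CPM on the left and 194 ± 30.6 CPM on the right (SD, n = 4 each).

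**Figure D1:**
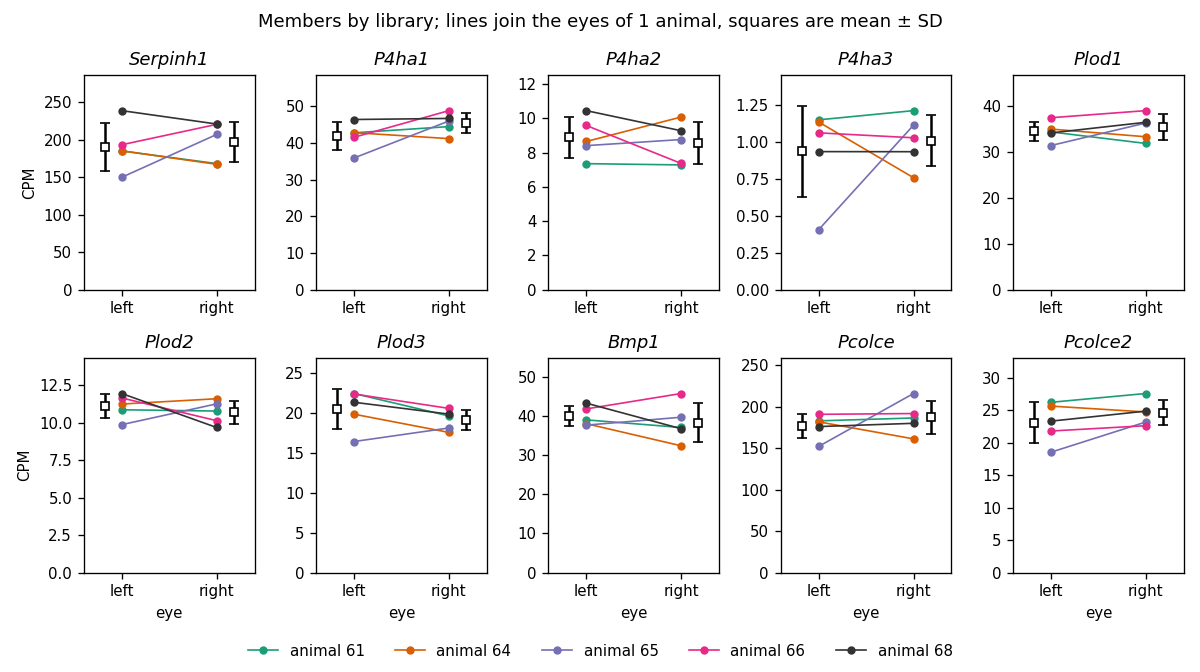
CPM of each of the 10 genes in every library, coloured by animal and joined between the eyes of an animal, with squares and bars for the mean and SD of each side. The sides overlap for every gene, and the left eye of animal 65 is the lowest library for 7 of them.

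The prolyl 4-hydroxylase enzyme pairs a catalytic alpha subunit, encoded by P4ha1, P4ha2 or P4ha3, with a beta subunit encoded by P4hb. P4ha1 (chr10:59323296-59373304, plus strand, 4114 bases of exon) is the widely expressed form. Its left-eye values were 42.7, 42.8, 35.9, 41.5 and 46.3 CPM in animals 61, 64, 65, 66 and 68. Its right-eye values were 44.4, 41.1, 45.9, 48.8 and 46.6 CPM. The right eye was higher in 4 of 5 animals, but the left eye of animal 68 lay above 3 of the right-eye libraries. With means of 41.8 ± 3.80 and 45.4 ± 2.84 CPM (SD, n = 5 each), the log2 difference was 0.12 ± 0.07 (SE; 95% interval -0.04 to 0.28; adjusted p = 0.9998, limma). This was the largest absolute difference among the 9 members that entered the test, and it did not pass.

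P4ha2 (chr11:54100095-54131665, plus strand, 2339 bases of exon) encodes the second alpha subunit. In left eyes it had 7.35, 8.65, 8.41, 9.58 and 10.4 CPM, in the animal order above. In right eyes it had 7.28, 10.1, 8.76, 7.37 and 9.27 CPM. Animal 61 was low in both eyes, animal 68 was high in both, and the eyes of animal 66 lay apart. The log2 difference was -0.06 ± 0.09 (SE; 95% interval -0.27 to 0.16; adjusted p = 0.9998, limma), and leaving out animal 66 turned its direction (0.02).

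P4ha3 (chr7:100285520-100319699, plus strand, 2361 bases of exon) encodes the third alpha subunit and was the rarest member, with a mean of 0.973 CPM, under the filter of 1 CPM. Its left-eye values were 1.15, 1.13, 0.406, 1.06 and 0.934 CPM, and its right-eye values 1.21, 0.758, 1.11, 1.03 and 0.934 CPM. The left eye of animal 65 stood below all other libraries, at an implied 33.9 reads against 54.9 to 92.8 in the others. In a fit without the filter the log2 difference was 0.13 ± 0.23 (SE; 95% interval -0.40 to 0.66; adjusted p = 0.9999, limma), and -0.11 without animal 65. This interval was the widest of the 10 genes and ran from 0.756-fold to 1.58-fold.

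Scaled by exon length, P4ha1 made up 70.8 ± 2.03% of the summed alpha subunits in left eyes and 73.0 ± 3.16% in right eyes (SD, n = 5 each). P4ha2 made up 26.5 ± 2.58% and 24.2 ± 3.53%, and P4ha3 2.73 ± 0.851% and 2.83 ± 0.521%. The order P4ha1, P4ha2, P4ha3 held in all 10 libraries, and the share of P4ha1 ran from 68.4% (right eye of animal 64) to 76.8% (right eye of animal 66). P4hb, named here after its values were seen, ran from 117 to 141 CPM in the 10 libraries, with a log2 difference of -0.02 ± 0.05 (SE). It also serves as a general protein disulfide isomerase, so its level was not set against the alpha subunits.

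The lysyl hydroxylases are encoded by Plod1, Plod2 and Plod3. The enzyme from Plod2 acts on the telopeptides at the ends of collagen chains, that from Plod1 mainly on the helix, and that from Plod3 also transfers sugars to hydroxylysine. Plod1 (chr4:147909753-147936767, minus strand, 3608 bases of exon) had 34.4, 35.0, 31.4, 37.5 and 34.2 CPM in left eyes and 31.9, 33.4, 36.4, 39.0 and 36.5 CPM in right eyes. Its coefficient of variation over the 10 libraries was 6.92%, next to 7.20% for Plod2, and its highest to lowest ratio was 1.24, next to 1.23 for Plod2. The log2 difference was 0.04 ± 0.06 (SE; 95% interval -0.10 to 0.17; adjusted p = 0.9998, limma), which bounds it to 0.932-fold to 1.13-fold.

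Plod2 (chr9:92542223-92608428, plus strand, 3712 bases of exon) had 10.9, 11.3, 9.88, 11.7 and 12.0 CPM in left eyes and 10.8, 11.6, 11.3, 10.1 and 9.69 CPM in right eyes. Its highest and its lowest library both came from animal 68, left and right. Between the eyes Plod2 differed by -0.06 ± 0.08 on the log2 scale (SE; 95% interval -0.25 to 0.14; adjusted p = 0.9998, limma), and 0.01 without animal 68. The gene overlaps Gm38391 on the opposite strand over 647 bases (mean 1.31 CPM), and whether strand was used in the authors' counting is not stated in the labels.

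Plod3 (chr5:136987019-136996648, plus strand, 3280 bases of exon) had 22.5, 19.9, 16.5, 22.4 and 21.4 CPM in left eyes. In right eyes it had 19.7, 17.6, 18.2, 20.6 and 19.9 CPM. It was lower in the right eye in 4 animals and higher in animal 65, whose left eye was the lowest library of all. The log2 difference was -0.09 ± 0.06 (SE; 95% interval -0.24 to 0.06; adjusted p = 0.9998, limma) and stayed negative in every alternative run. Plod3 overlaps Znhit1 on the opposite strand over 1003 bases (mean 3.30 CPM).

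Shares of the lysyl hydroxylases were computed per exon length in the same way. Plod1 made up 50.9 ± 1.63% of the family in left eyes and 52.9 ± 1.93% in right eyes, Plod3 33.2 ± 1.84% and 31.5 ± 1.64%, and Plod2 15.9 ± 0.647% and 15.6 ± 1.69% (SD, n = 5 each). The share of Plod3 was lower in the right eye in 5 of 5 animals, by -1.63 ± 0.420 percentage points, and that of Plod1 was higher in 5 of 5, by 1.98 ± 1.91 points (mean and SD of 5 animals). These shares sum to the whole, so they are not independent of each other, and they were picked out after their values were seen and are given with no test. With the length of the longest transcript in place of all exons, the mean shares over the 10 libraries were 54.4% for Plod1, 15.1% for Plod2 and 30.5% for Plod3.

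**Figure D2:**
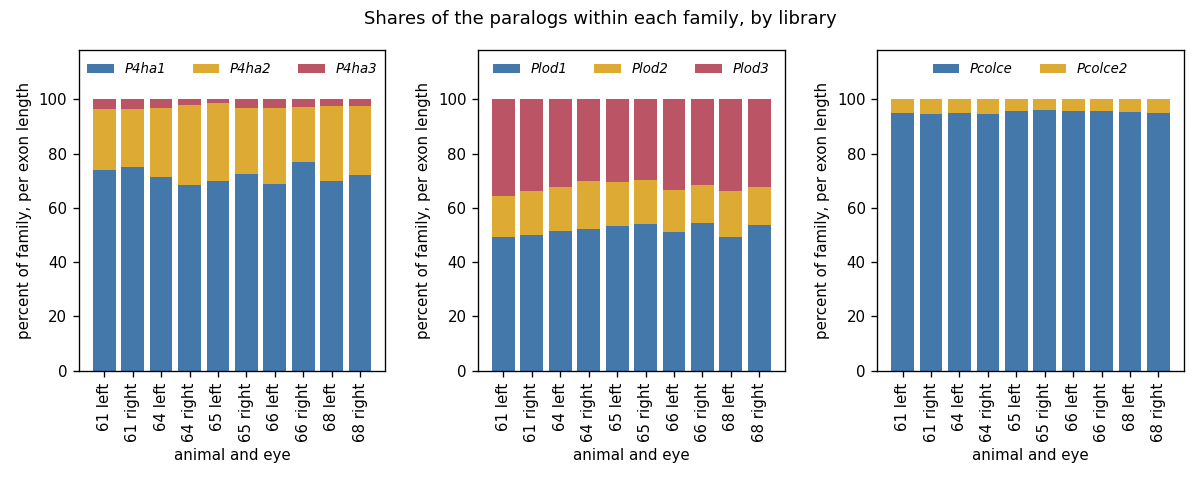
Share of each gene in its family, in percent of the summed CPM per kilobase of exon, as 1 stacked bar for each animal and eye. P4ha1 lies between 68.4% and 76.8% of the alpha subunits, and Pcolce between 94.5% and 96.0% of the enhancer pair.

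Bmp1 encodes the protease that removes the C-propeptide of procollagen (chr14:70474558-70520234, minus strand, 3684 bases of exon). Left eyes had 39.0, 38.0, 37.6, 41.8 and 43.2 CPM, and right eyes 37.0, 32.4, 39.7, 45.7 and 36.7 CPM. The right eyes of animals 64 and 66 were the lowest and the highest of the 10 libraries, so the right side spanned the left. Bmp1 thus had a log2 difference of -0.07 ± 0.07 (SE; 95% interval -0.23 to 0.09; adjusted p = 0.9998, limma).

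Pcolce encodes a glycoprotein that binds the C-propeptide and enhances its removal by Bmp1 (chr5:137605103-137613784, minus strand, 1701 bases of exon). Left eyes had 183, 182, 152, 191 and 176 CPM. Right eyes had 187, 161, 216, 192 and 180.2 CPM. The lowest and the highest library were the left and the right eye of animal 65. For Pcolce the log2 difference came to 0.08 ± 0.09 (SE; 95% interval -0.14 to 0.30; adjusted p = 0.9998, limma), and -0.03 without that animal, the means then being 183 ± 6.08 and 180.2 ± 13.3 CPM (SD, n = 4 each). Pcolce overlaps Fbxo24 on the same strand over 1282 bases and Gm36266 on the opposite strand over 933 bases, genes with means of 0.719 and 1.85 CPM.

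Pcolce2, which encodes a second enhancer of this kind (chr9:95637601-95698096, plus strand, 4438 bases of exon), had 26.2, 25.6, 18.5, 21.8 and 23.3 CPM in left eyes. Right eyes had 27.6, 24.7, 23.2, 22.6 and 24.9 CPM. Animal 61 was the highest on each side, and animals 65 and 66 were the lowest on each side. The log2 difference was 0.10 ± 0.06 (SE; 95% interval -0.05 to 0.24; adjusted p = 0.9998, limma), with the right eye higher in 4 of 5 animals. Per exon length, Pcolce made up 95.2 ± 0.432% of the pair in left eyes and 95.2 ± 0.683% in right eyes (SD, n = 5 each).

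**Figure D3:**
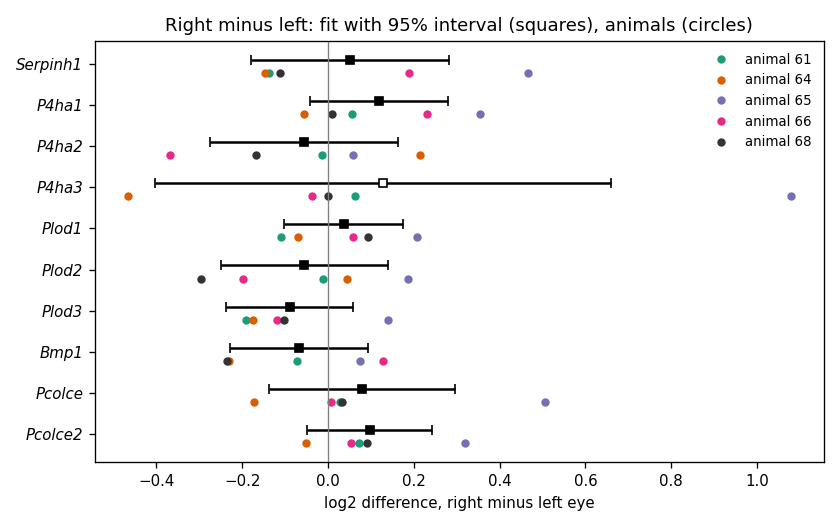
Right minus left difference of each of the 10 genes on the log2(CPM + 0.230) scale, with squares and bars for the limma estimate and its 95% interval and circles for the 5 animals. Every interval includes 0, and the widest is that of P4ha3, fitted without the filter on low values.

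Among the 9 members in the test, 0 were called between the eyes and 0 had an unadjusted p under 0.05, where 0% of all tested genes were called. Of the 9, 5 were higher and 4 lower in the right eye, with a median log2 difference of 0.04 and a median SE of 0.07, against -0.01 and 0.09 over all tested genes. Left and right eyes did not overlap for 0 of the 10 genes, against 33 of 15414 tested genes (0.214%). Between animals 0 of 9 were called, against 0.0843% of all genes. Among these 9 the largest range of animal means was that of P4ha2, 0.42 on the log2 scale between animals 68 and 61 (adjusted p = 0.741, limma). Serpinh1 followed with 0.38 between animals 68 and 64 (adjusted p = 0.730, limma) and Pcolce2 with 0.37 between animals 61 and 65 (adjusted p = 0.657, limma). The median range was 0.31 for these 9 and 0.28 for all tested genes. P4ha3, fitted without the filter, had a range of 0.61 between animals 61 and 65 (adjusted p = 0.905, limma).

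The left eye of animal 65 stood apart for these genes. It was the lowest of the 10 libraries for 7 of 10 members (Serpinh1, P4ha1, P4ha3, Plod1, Plod3, Pcolce and Pcolce2), and for 16.6% of all tested genes. After scaling to the sum of listed genes it was lowest for 6 of 10 members and 6.10% of tested genes. The members' median log2 deviation from their means was -0.26 in it, against -0.05 for all tested genes. In this library the summed markers were lowest for scleral fibroblasts (5783 CPM, others up to 8433), fibrillar collagens (4599 CPM, others up to 7604) and RPE (4629 CPM, others up to 6415), of which the first pair of lists share Col1a1 and Col1a2. The sums of collagen folding partners (1928 CPM, others up to 2546), endoplasmic reticulum chaperones (952 CPM, others up to 1138) and Schwann cell markers (84.2 CPM, others up to 148) were lowest there too, and that of cartilage and bone markers was the highest (18.1 CPM). Sparc alone averaged 1761 CPM of the folding partner sum. The lowest right-eye sums, in the order of these 6 lists, were 6048, 4684, 4809, 2129, 985 and 85.6 CPM, so several were close. Col1a1 by itself was lowest in the right eye of animal 64 (1550 CPM, against 1660 in the left eye of animal 65). These sums were not scaled to the sum of listed genes. Rod markers were at 723 CPM, the highest of the left eyes and below the 1509 CPM of the highest right eye, and skeletal muscle markers at 3790 CPM, inside the range of the other libraries. No gene of these lists was at 0 in all libraries, and their part in the low values was not tested. In animal 65 the right eye was higher than the left for 10 of 10 members and for 60.8% of all tested genes, with median log2 differences of 0.26 and 0.06. The members' differences ran from 0.06 for P4ha2 and 0.07 for Bmp1 to 0.50 for Pcolce and 1.08 for P4ha3. After scaling to the sum of listed genes, 8 of 10 members and 40.5% of tested genes were higher in the right eye. In bulk tissue, fewer cells of a type and less RNA per cell cannot be told apart.

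Levels were compared between genes per kilobase of exon. Pcolce had the highest level, 107 ± 10.2 CPM per kb, followed by Serpinh1 with 79.3 ± 11.5 CPM per kb (SD, 10 libraries), above 99.4% and 99.1% of tested genes. Bmp1 (10.6 ± 1.02 CPM per kb), P4ha1 (10.6 ± 0.891) and Plod1 (9.69 ± 0.671) formed a middle group. Plod3 (6.05 ± 0.609 CPM per kb), Pcolce2 (5.38 ± 0.578), P4ha2 (3.73 ± 0.488) and Plod2 (2.94 ± 0.212) lay lower, and P4ha3 lowest at 0.412 ± 0.101 CPM per kb. Bmp1 exceeded P4ha1 in 5 of 10 libraries, so these neighbours were not ordered. P4ha1 exceeded Plod1 in 9 of 10 and Plod3 exceeded Pcolce2 in 8 of 10. The other neighbours kept their order in 10 of 10 libraries. Serpinh1 was 7.47 times Bmp1 (6.01 to 9.08 over the libraries), and Plod2 was 7.76 times P4ha3.

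**Figure D4:**
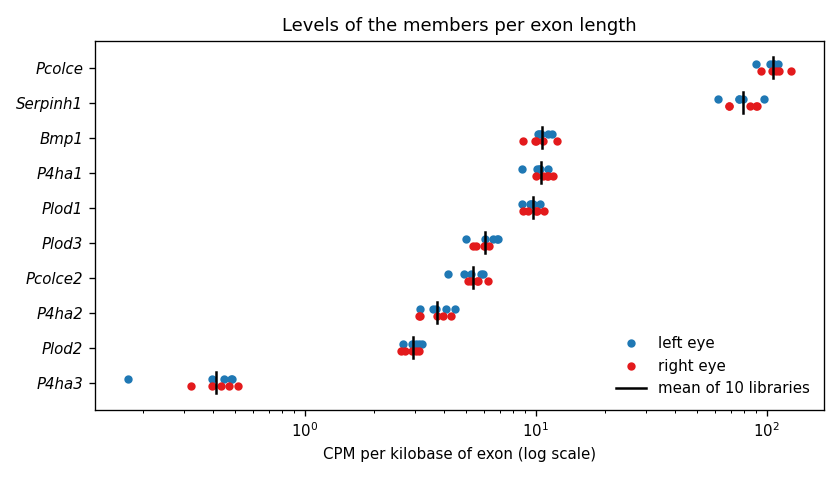
Level of each of the 10 genes in CPM per kilobase of exon on a log axis, 1 point per library coloured by side, with a line at the mean. Pcolce and Serpinh1 lie far above Bmp1, P4ha1 and Plod1, and P4ha3 lies lowest.

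Serpinh1 followed type I collagen across libraries more closely than the other members. Its correlation with the mean log2 level of Col1a1 and Col1a2, the genes of the 2 type I chains, was r = 0.92 (Spearman's rho 0.90) over 10 libraries, against a median of 0.03 over all tested genes. Leaving out animal 65's left eye gave 0.89, and 0.85 was found with the omission of the 2 libraries farthest from the median (the left eyes of animals 65 and 68). P4ha1 had r = 0.81 (0.76 without the left eye of animal 65), Bmp1 0.76 (0.81), Plod3 0.71 (0.58) and Plod1 0.65 (0.52). The value for Pcolce was 0.47 and fell to 0.22 without that library, and P4ha3 went from 0.48 to 0.08. P4ha2 (0.00) and Plod2 (-0.03) had values near 0, and Pcolce2 had 0.15 (-0.43 without that library). Omitting the 2 farthest libraries gave -0.40 for P4ha2 and -0.76 for Plod2. These are descriptions: the 10 libraries come from 5 animals, and all genes of a library share its total and its tissue make-up. Within animals, the right minus left difference had the same sign as that of type I collagen in 5 of 5 animals for Serpinh1 and for Bmp1. The sign was the same in 4 of 5 for Plod1 and Plod3, and in 3 of 5 for P4ha1, P4ha2, P4ha3, Plod2, Pcolce and Pcolce2. By this measure P4ha1 did not differ from P4ha2 or Plod2, and the share over all tested genes was not computed.

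Set against type I collagen, Serpinh1 was steadier than by itself. Its level per kb was 92.3 ± 6.43 per 1000 of type I collagen (SD, 10 libraries), a coefficient of variation of 6.96%, against 14.5% for its CPM. It was the only 1 of the 10 members whose variation was smaller as this ratio, a share near the 7.06% of 15211 genes with a length. Because type I collagen itself varies, this outcome depends on each gene's own variation and its r, and is no separate sign. The ratio of Pcolce was 126 ± 18.4 with a coefficient of variation of 14.6%, above the 9.53% of its CPM. P4ha1 had 12.5 ± 1.37, or 11.0%, against 8.41% for its CPM. Col1a1 ran from 1550 to 2739 CPM over the libraries.

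**Figure D5:**
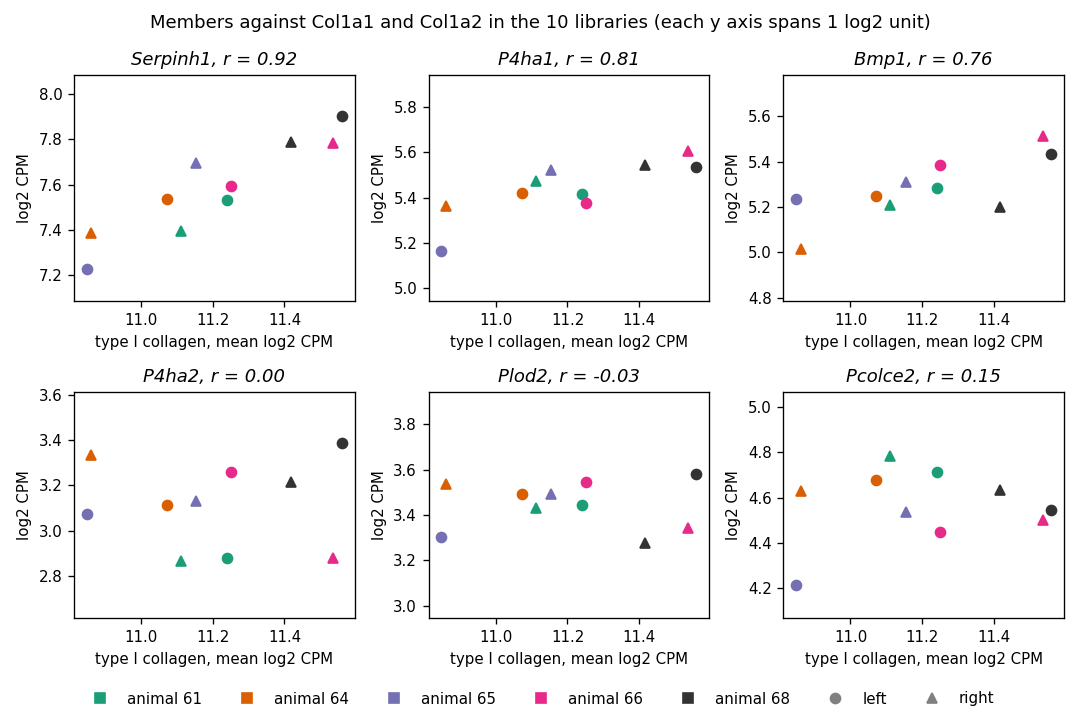
Log2 CPM of 6 of the genes against the mean log2 level of Col1a1 and Col1a2, 1 point per library, with circles for left eyes, triangles for right eyes and colours for animals. Serpinh1 follows type I collagen (r = 0.92), while P4ha2 does not (r = 0.00).

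Members followed each other to different degrees. Of their 45 pairs, 36 had a positive r over the 10 libraries, with a median of 0.43, and the median was 0.00 without the left eye of animal 65. Serpinh1 and P4ha1 had r = 0.85, and 0.76 without that library. P4ha1 and P4ha2 had r = -0.09, and the enhancers Pcolce and Pcolce2 went from 0.34 to -0.32 without it.

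The genes most like each member were taken as the 3 with the highest r over the 10 libraries among 7544 genes that averaged 10 CPM or more. For Serpinh1 they were Ppic (0.96), Stt3a (0.94) and Rn7s2 (0.93), and for P4ha1 Fam168b (0.95), Stt3a (0.93) and Sec11a (0.93). Stt3a is a subunit of the oligosaccharyltransferase and Sec11a of the signal peptidase, both of the endoplasmic reticulum. For Bmp1 the leading gene was Mrc2 (0.97), which encodes a collagen uptake receptor, followed by Golga3 (0.92) and Cdh11 (0.92). For Pcolce they were Atraid (0.95), H1f2 (0.93) and Rap2b (0.93), and for Pcolce2 Npr3 (0.93), Atf6 (0.92) and Ptgis (0.92). For P4ha2 they were Entpd4 (0.94), Prdx2 (0.92) and Mtch2 (0.89), and for P4ha3 Mrpl51 (0.94), Qsox2 (0.93) and Rapgef4 (0.92). For the lysyl hydroxylases they were Chid1 (0.93), Clip2 (0.91) and Fbxw8 (0.87) with Plod1, Tmem41b (0.93), Rpl18 (0.92) and Trmt2a (0.90) with Plod2, and St7l (0.92), Pcyox1 (0.91) and Kif5b (0.89) with Plod3. Without the left eye of animal 65, 20 of these 30 genes were among the 10 most like their member. The values for P4ha3 fell most: they became 0.69 for Mrpl51, 0.67 for Qsox2 and 0.73 for Rapgef4. The lowest of the others was 0.78 (Ptgis with Pcolce2). The genes of P4ha1 also left its 10 most alike (Fam168b at rank 13, Stt3a 21 and Sec11a 52). So did Atf6 (23) and Ptgis (48) for Pcolce2, H1f2 (17) for Pcolce and Trmt2a (13) for Plod2. High values are found for any gene when so many are searched over 10 libraries, so these names describe these libraries.

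The wider pathway was given by 5 lists, in none of which a gene was called between the eyes (0% of all tested genes were). Of 19 further collagen folding partners, 10 were higher and 9 lower in the right eye, with a median log2 difference of 0.01. Among them Sparc, a collagen-binding protein of the matrix, had 1725 ± 219 and 1797 ± 134 CPM and a log2 difference of 0.07 ± 0.09 (SE), and Ppib, a prolyl isomerase of the endoplasmic reticulum, had 65.5 ± 5.06 and 67.8 ± 3.88 CPM (SD, n = 5 each) and 0.05 ± 0.07. Of the procollagen proteases other than Bmp1, 3 entered the test, with a median of -0.07. Adamts2, which removes the N-propeptide, had a log2 difference of -0.07 ± 0.09 (SE), and Tll1, a relative of Bmp1, had -0.28 ± 0.12 (SE; adjusted p = 0.9998, limma).

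Of 11 fibrillar collagen genes, 6 were higher and 5 lower in the right eye, with a median of 0.00. Col1a1 had 2104 ± 417 and 2118 ± 454 CPM, and Col1a2 had 2683 ± 464 and 2748 ± 425 CPM (SD, n = 5 each). Of 13 chaperones of the endoplasmic reticulum, 5 were higher and 8 lower, with a median of -0.01, and Calr, which encodes calreticulin, differed by 0.05 ± 0.07 (SE) and Hsp90b1, which encodes GRP94, by -0.00 ± 0.07. Across libraries Serpinh1 had r = 0.91 with the mean of these chaperones (0.88 without the left eye of animal 65). This was 1 of 180 values of members against lists, for which r over all tested genes was not computed. Of 11 hypoxia targets tested, 4 were higher and 7 lower, with a median of -0.06. Slc2a1, a glucose transporter, differed by 0.02 ± 0.08 (SE), and Ldha, lactate dehydrogenase A, by -0.14 ± 0.06 (SE; adjusted p = 0.9998, limma), lower in the right eye in 5 of 5 animals. Across the 10 libraries the members' r with the mean of the hypoxia list ran from -0.54 for P4ha1 (-0.75 without the left eye of animal 65) to 0.44 for Plod2 (0.54). The hypoxia list was 1 of 18 compared, and others gave values farther from 0. Plod2 had 0.78 with smooth muscle and pericyte markers (0.81 without that library), and P4ha2 had -0.74 with macrophage markers. Of the 4 members with ACGTG in the promoter, P4ha1 and Serpinh1 (-0.44) had negative values, and P4ha2 (0.24, and 0.06 without the 2 farthest libraries) and Plod3 (0.11) had weak positive ones. For the members with a promoter but no ACGTG the values were -0.39 for Plod1, -0.34 for Pcolce, -0.01 for P4ha3 and 0.10 for Pcolce2. Of these, the Plod1 and Pcolce promoters held GCGTG. Whether hypoxia acts on any of these genes was not tested.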

How the data were processed

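RNA of posterior eye tissue was measured in 10 libraries, 2 eyes of each of 5 mice. The values are CPM deposited by the authors with an offset of 1e-04, which was subtracted; per the labels, libraries came from a stranded total RNA kit with ribosomal RNA depletion. STAR, Partek and the build GRCm38 (mm10) are named in the submitters' processing notes. No version, annotation or use of strand is stated there. Exon lengths came from GENCODE M21, in which 25722 genes had the same name and chromosome, with equal starts for 99.28% and equal ends (the deposited stop minus 1) for 99.35%. Coordinates are 1-based. Depth was implied by the step between low values, of which 89.0% to 90.1% were whole multiples within a tolerance of 0.05. Whole reads were thus not recovered for every gene. The only run on counts was limma with voom weights, on implied reads rounded to whole numbers.

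Tests used log2(CPM + 0.230), which understates changes of low genes, on genes averaging 1 CPM or more (15414 genes, 9 of the 10 members), in limma 3.58.1 (R 4.3.3, intensity trend) with animal and side as terms (4 residual degrees of freedom), called at a Benjamini-Hochberg adjusted p under 0.05. P4ha3 was fitted without the filter. Samples are paired by animal, from the shared numbers in the labels and the contralateral design. Deviations of fellow eyes correlated above 0.1 in 2 of 5 animals and below 0 in 2 (-0.19 in animal 66 and -0.05 in animal 68). Taken over all tested genes, these deviations thus gave little sign of pairing. The Y-linked genes and Xist, called between animals, differed more between animals than between fellow eyes. The members and lists were chosen with earlier results of these data known. Named genes were all members, the 2 genes of each pathway list with the highest level per length, and the 3 genes most like each member. Scripts were tested on simulated data. Alternatives covered scaling, pseudocount, filter, trend, weights, pairing, a skeletal muscle covariate and each animal left out.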

Additional observations from a re-analysis of the deposited data

Results flagged for a closer look

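P4ha3 in the left eye of animal 65 lay far from the other left eyes, at 0.406 CPM against 0.934 to 1.15 CPM in the other 4, a gap of 0.711 of the whole range where 0.71 marks the 95% limit for 5 samples. It was 1 of 20 groups examined (10 genes on 2 sides), and chance gives about 1 in 20. The same rule picked 5.63% of all tested genes in left eyes and 7.27% in right eyes.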

How the results depend on the processing

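The count of genes called between the eyes was 0 in all 16 alternatives, the fit with no replicate block (unpaired eyes) included, and 0 members were called in any of them. Between animals 13 genes were called, 20 with array weights, 7 with no intensity trend and 5 to 11 with 1 animal left out. The right minus left log2 difference changed sign for Serpinh1 (-0.0132) and Plod1 (-0.00787) with array weights. Leaving out 1 animal gave ranges of -0.0517 to 0.10 for Serpinh1, -0.12 to 0.0228 for P4ha2, -0.00662 to 0.0725 for Plod1, -0.12 to 0.00531 for Plod2, -0.0267 to 0.14 for Pcolce and -0.11 to 0.28 for P4ha3, and the sign changed without animal 65 (Serpinh1, Plod1, Pcolce, P4ha3), 66 (P4ha2) or 68 (Plod2). P4ha1, Plod3, Bmp1 and Pcolce2 kept their sign in every alternative run for them. The cause was not tested. P4ha3 lies under the filter, so the alternatives that keep the filter were not run for it. Those for P4ha3, the correlations, the family shares and the scaled values of animal 65 were chosen after seeing the data. With 5 animals, the narrowest 95% interval among the members was that of Plod1 (-0.10 to 0.17).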
